A study of Rattus norvegicus with 84 samples.

Results

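The collagen system of the ageing rat hippocampus was followed through 9 genes: 6 collagen chains (Col1a1, Col1a2, Col3a1, Col4a1, Col4a2 and Col5a1), the collagen chaperone Serpinh1, and the matrix proteins Fbln2 and Sparc. They are 9 of the 15553 genes listed for CA1, 9 of 15706 for CA3 and 9 of 15374 for the dentate gyrus (DG), and were picked by symbol with their change between ages already known. That choice rests on measured values, so the age changes of these 9 genes are given as a description, with no test of their own. The libraries came from 28 male F344 rats, an inbred strain, with 12 young rats of 5 months and 16 middle-aged rats of 12 months. Each rat contributed a CA1, a CA3 and a DG library made from polyA RNA of 1 hemisphere after brief isoflurane and decapitation. The labels name no treatment that differs between the groups.

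Collagens are secreted as trimers of chains. Col1a1 and Col1a2 encode the chains of type I collagen and Col3a1 the chain of type III, which form fibrils and which in the brain come mainly from fibroblasts of the meninges and of larger vessels. Col4a1 and Col4a2 encode the chains of the type IV trimer that makes the sheet of the basement membrane around brain vessels, and Col5a1 a chain of type V, which starts and limits fibrils. Serpinh1 (HSP47) binds folded procollagen in the endoplasmic reticulum and travels with it towards the Golgi. Fbln2 encodes fibulin-2, a glycoprotein of basement membranes and elastic fibres. Sparc encodes a secreted protein that binds collagen and is made in the brain by glia and vessel cells.

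Start regions are shown for 3 places where the values below can be set beside the sequence. RefSeq's table of start regions (build GRCr8, while the submitters' processing notes name rn6 for the reads) held an entry for 7 of the 9 genes, all but Col1a1 and Col3a1. Col4a1 and Col4a2 lie head to head, with start sites at 84885597 on the plus strand and 84885520 on the minus strand of chromosome 16. The 76 bases between them, at chr16:84885521-84885596 and read on the plus strand towards Col4a1, are shown because both genes start from this stretch. Capitals mark a GC box (GGGCGG or its reverse complement).

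Col4a2 to Col4a1: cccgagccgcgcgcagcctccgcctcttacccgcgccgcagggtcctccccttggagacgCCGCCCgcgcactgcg

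Of its bases 78.95% were G or C. In the same table, 348 pairs of opposed start sites lay at most 76 bases apart among 33469 start regions. Serpinh1 and Fbln2, both called lower in all 3 subregions below, are shown by the 250 bases before each start site, at chr1:163062977-163063226 on the minus strand for Serpinh1 and at chr4:125261409-125261658 on the plus strand for Fbln2. Capitals mark GC boxes and, in Serpinh1, a heat shock element (GAANNTTC).

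Serpinh1: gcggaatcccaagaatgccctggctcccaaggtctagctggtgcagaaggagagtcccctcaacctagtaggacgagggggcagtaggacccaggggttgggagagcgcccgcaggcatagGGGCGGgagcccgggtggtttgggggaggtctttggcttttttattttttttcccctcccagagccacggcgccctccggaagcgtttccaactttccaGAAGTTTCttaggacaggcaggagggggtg

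Fbln2: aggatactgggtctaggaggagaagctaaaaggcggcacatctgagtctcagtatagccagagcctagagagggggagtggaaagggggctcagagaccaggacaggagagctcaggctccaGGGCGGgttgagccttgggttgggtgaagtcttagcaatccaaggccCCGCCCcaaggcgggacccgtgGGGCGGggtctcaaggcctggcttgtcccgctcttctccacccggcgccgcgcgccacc

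On both strands of the 250 bases before a start site, GC boxes were found in 30.5% of the 33469 regions, CCAAT in 34.0%, TATAAA in 12.9% and the heat shock element in 7.23%. Within a gene, the hits below did not overlap. Serpinh1 held the heat shock element starting 30 bases before its start site, the only one among the 7 genes, and a GC box 129 bases before it. Fbln2 held 3 GC boxes, at 128, 81 and 59 bases, and Col5a1 held 1 at 127. Col4a1 held a GC box at 16 and a CCAAT box at 170 bases. Col4a2 held GC boxes at 121 and 66 and a CCAAT box at 105 bases. The Col4a1 GC box at 16 and the Col4a2 GC box at 66 are the same site, marked above between the start sites. In Col1a2 a CCAAT box lay at 221 and TATAAA at 170 bases, and Sparc held none of the 4 motifs. These are matches of letters only.

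Libraries held 14.4 to 23.4 M gene reads for CA1, 15.7 to 21.8 M for CA3 and 14.9 to 21.8 M for DG. Values are the authors' normalized counts, which are comparable between libraries of 1 subregion. By their numbers the rats form 2 runs, one with 6 young and 10 middle-aged animals and a later one with 6 of each age, and the ages have separate blocks of numbers within a run. Whether the runs differ in handling is not stated, and a block effect cannot be told apart from age. One CA3 library, middle-aged replicate 13, stood apart in the fibrillar collagens. Its column is headed with the rat's number and no subregion, and it was taken as CA3 because it stands in the CA3 table. The summed level of 3 CA3 pyramidal markers was 11310 or more in each middle-aged CA3 library, this one included, and at most 6012 in CA1 and 9441 in DG libraries. It held 180 normalized counts of Col1a1 against 67.8 in the next of its group, 75.1 against 40.2 of Col1a2 and 227 against 106 of Col3a1. The same library had the highest summed level of 10 fibroblast markers in its group (2489, against 1784 in the next) and a choroid plexus marker sum of 19166, the second of its group after 20700. In that rat's CA1 and DG, Col1a1 stood at 54.4 and 46.8, so of that rat's libraries only the one from CA3 was high in Col1a1. Age changes in CA3 of Col1a1, Col1a2, Col3a1, Serpinh1 and Fbln2 are given with and without it. The other CA3 results include it, apart from checks that leave out libraries.

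Among the fibrillar chains, type I collagen had the lower levels in middle-aged rats. In CA1, Col1a1 ranged from 77.7 to 138 with a median of 101 in the 12 young and from 30.1 to 87.5 with a median of 66.4 in the 16 middle-aged libraries. The middle-aged libraries all lay below the young median, and 14 of 16 lay below the lowest young library. In CA3 the young libraries ran from 47.0 over a median of 85.3 to 124, and the middle-aged from 32.1 over 45.0 to 180, with 15 of 16 below the young median. DG values ran from 47.0 over 86.2 to 131 in young and from 16.2 over 42.3 to 88.3 in middle-aged rats. The ranges of the ages overlapped in all 3 subregions. The log2 change of Col1a1, on the scale of log2 of the value plus 1, was -0.73 ± 0.13 (SE, n = 12 and 16 here and below) in CA1, -0.65 ± 0.19 in CA3 and, in DG libraries, -0.98 ± 0.20. Without the CA3 library that stood apart, the CA3 change was -0.77 ± 0.14.

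Col1a2, the partner chain of Col1a1 in type I collagen, was the gene of the 9 with the fewest reads, from 3 to 94 per library. Its DG values ran from 17.0 over a median of 46.2 to 82.4 in young and from 2.29 over 14.7 to 30.5 in middle-aged rats. Each middle-aged DG library lay below the young median, and 10 of 12 young libraries lay above the highest middle-aged one. CA3 values ran from 22.4 over 41.2 to 86.1 in young and from 11.4 over 20.5 to 75.1 in middle-aged rats. In CA1 the groups overlapped most, from 17.4 over 32.6 to 74.5 in young and from 7.43 over 22.2 to 69.0 in middle-aged libraries. The log2 changes were -0.50 ± 0.26 (CA1), -0.83 ± 0.24 (CA3, or -0.95 ± 0.21 without replicate 13) and -1.62 ± 0.27 (DG). With so few reads, counting error is part of this spread. Whether some reads of this chain were assigned to another gene model is not known here, so its level and its correlations carry that limit.

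Col3a1 showed smaller differences. Its medians were 65.6 in young and 54.5 in middle-aged CA1, 75.9 and 44.8 for CA3, and 47.0 and 34.7 for DG, and the ranges overlapped widely. The log2 changes were -0.22 ± 0.14, -0.46 ± 0.23 and -0.44 ± 0.20, none of which passed the threshold used for all genes. Leaving out CA3 replicate 13 moved the CA3 change to -0.60 ± 0.18, which did pass it. In the DG, 4 of 28 fits that each left out 1 rat also passed (those lacking young replicate 6, young replicate 9, middle-aged replicate 3 or middle-aged replicate 15), so the call for Col3a1 turned on single libraries in both subregions.

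Serpinh1, the chaperone that these chains share, was also lower in middle-aged rats. In CA1 its values ran from 869 over a median of 1164 to 1386 in young and from 694 over 875 to 1067 in middle-aged rats. CA3 ran from 944 over 1078 to 1233 and from 730 over 833 to 982, with all 16 middle-aged libraries below the young median and 14 below the lowest young library. In the DG the values ran from 774 over 1044 to 1365 and from 531 over 703 to 1064. All 3 pairs of ranges overlapped. From CA1 over CA3 to DG, the log2 change was -0.40 ± 0.07, -0.33 ± 0.05 and -0.56 ± 0.10. Without CA3 replicate 13, the CA3 change was -0.34 ± 0.05.

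Fbln2 ran close to Serpinh1. Young CA1 libraries lay between 971 and 1467 with a median of 1123, and middle-aged ones between 654 and 1066 with a median of 806. In CA3 the ranges were 773 to 978 (median 903) and 641 to 821 (median 711), and in the DG 729 to 1165 (median 1041) and 492 to 1024 (median 692). Every middle-aged library of each subregion lay below the young median of that subregion, and 15 of 16 in CA1 lay below the lowest young library. Its log2 change was -0.53 ± 0.07 for CA1, -0.32 ± 0.05 for CA3 (-0.31 ± 0.05 without replicate 13) and -0.53 ± 0.10 for DG.

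The vessel sheet collagens and Sparc lay near 0. Type V (Col5a1) lay nearer to 0 in CA3 and the DG than in CA1, where its change was close to that of Col3a1 (-0.22 ± 0.14). None of these changes passed the threshold used for all genes. For Col4a1 the log2 change was -0.10 ± 0.10, -0.01 ± 0.07 and -0.05 ± 0.09 in CA1, CA3 and the DG, and for Col4a2 it was -0.02 ± 0.12, -0.02 ± 0.08 and 0.07 ± 0.12. Col4a1 medians in young and middle-aged rats were 1028 and 959.8 for CA1, 1230 and 1229 for CA3, and 1148 and 1083 for DG. The log2 change of Col5a1 was -0.23 ± 0.13 for CA1, -0.11 ± 0.11 for CA3 and 0.04 ± 0.18 for DG, where 2 young libraries, at 114 and 123, lay under the next at 259 and the young median of 347. Sparc, at medians of 8925 and 8807 in CA1, had a log2 change there of -0.01 ± 0.07, with 0.06 ± 0.04 in CA3 and -0.09 ± 0.06 in the DG. In each subregion the young and middle-aged ranges of these 4 genes overlapped.

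**Figure D1:**
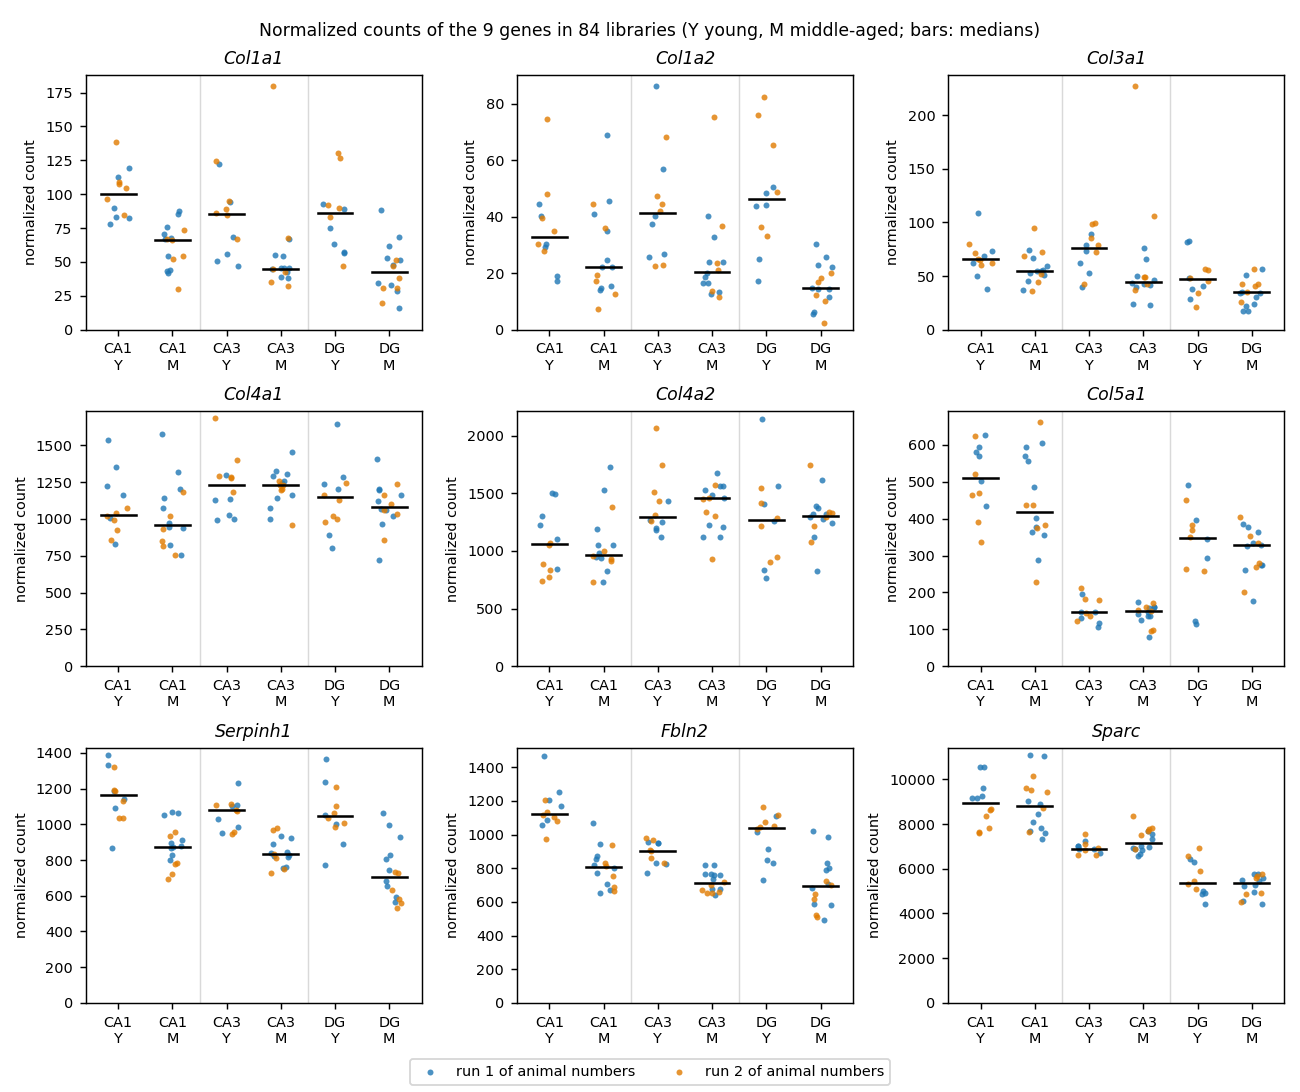
Normalized counts (y axis, from 0, a scale for each gene) of the 9 genes in 84 libraries by subregion and age (x axis), 1 point a library, coloured by the run of animal numbers, with black bars at the medians. Middle-aged libraries of Fbln2 all lie below the young median of their subregion, while those of Col4a1 lie on both sides of it, and the highest Col3a1 point is the CA3 library at 227.

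All 9 genes passed the filter on low values in each subregion. By the threshold over all genes tested (limma, adjusted p below 0.05), 3 of 9 were called lower in CA1 (Col1a1, Serpinh1 and Fbln2), and 4 of 9 in CA3 and in the DG (those 3 and Col1a2). None was called higher. Of all genes tested, 25.2% were called in CA1 (12.8% lower, 12.4% higher), 21.7% in CA3 (10.8% lower, 10.9% higher) and 37.1% in the DG (18.5% lower, 18.5% higher). The genes were picked on this contrast, so nothing is read from their share against that background. The median log2 change of the 9 was -0.23, -0.32 and -0.44 (CA1, CA3, DG), beside 0.00, 0.00 and 0.01 over all genes tested. Col1a1, Serpinh1 and Fbln2 were called lower in all 3 subregions, as were 636 of 14291 genes tested in all 3 (4.45%).

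The run of animal numbers made a difference to these calls. In the first run alone, 1 of the 9 genes was called in CA1 (Fbln2) and 0 in the DG, and only 25 of all genes were called in the DG by limma, against 6812 in the second run alone. In the DG the log2 change of Fbln2 was -0.30 ± 0.14 (first run) and -0.81 ± 0.08 (second run), and that of Serpinh1 was -0.43 ± 0.14 and -0.77 ± 0.08. For Col1a2 in CA1 it was -0.09 ± 0.32 and -1.01 ± 0.36. In CA3 the runs lay closer for Serpinh1, at -0.34 ± 0.06 and -0.31 ± 0.08, and the first run gave 3 calls and the second 2. All of Col1a1, Col1a2, Serpinh1 and Fbln2 had a negative change in both runs and every subregion. So did Col3a1, which was not called in any subregion with all 28 rats.

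**Figure D2:**
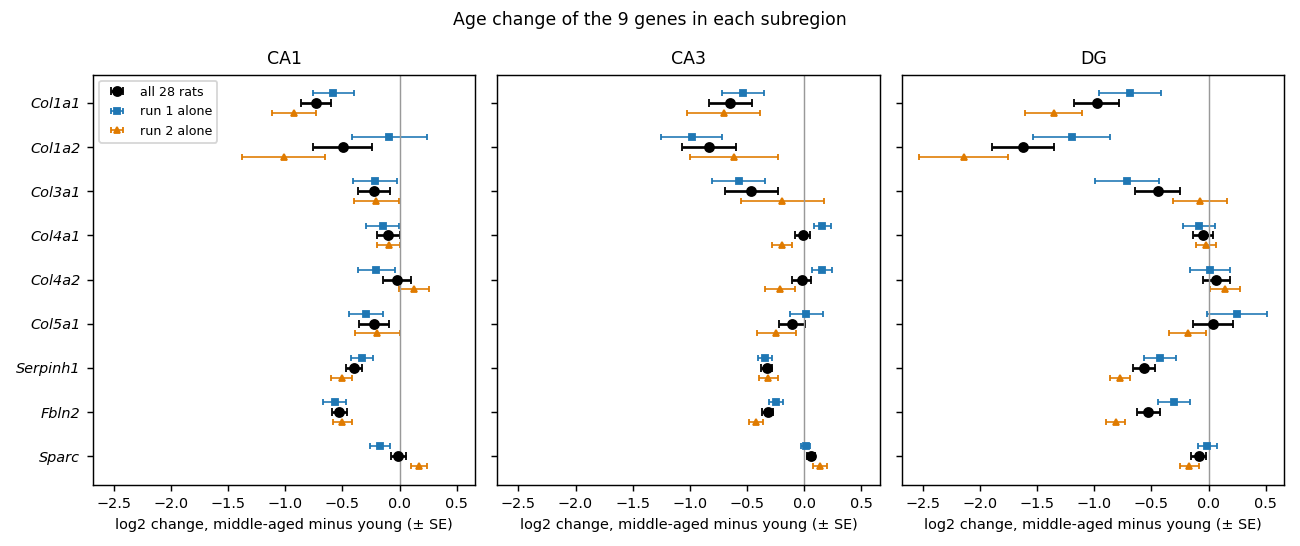
Log2 change from young to middle-aged (x axis, bars are SE) of each gene (y axis) in CA1, CA3 and the DG, for all 28 rats (black circles), the first run (blue squares) and the second run (orange triangles). Col1a1, Col1a2, Col3a1, Serpinh1 and Fbln2 lie left of 0 in both runs, and the Col4a1, Col4a2, Col5a1 and Sparc symbols lie on either side of it.

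Whether the age change differed between subregions was tested within rats, as the change in the difference of a rat's log2 values. None of the 9 genes passed in any of the 3 comparisons (limma, 0 of 9 each). Unadjusted p-values were below 0.05 for 1 gene in the DG against CA1, 4 in the DG against CA3 and 1 in CA1 against CA3. Over all genes, limma gave an unadjusted p below 0.05 for 2325 of 14340, 2942 of 14378 and 1444 of 14513 in the same order. After adjustment, 0.607% of all genes passed for the DG minus CA1, 2.73% for the DG minus CA3 and 0.0% for CA1 minus CA3. For CA1 minus CA3, other settings called from 0 to 57. Col1a2 had the largest estimate, lower in the DG than in CA1 by a further -1.13 ± 0.37 (limma adjusted p = 0.117) and than in CA3 by -0.79 ± 0.36 (limma adjusted p = 0.212). Serpinh1 in the DG against CA3 stood at -0.24 ± 0.11 (limma adjusted p = 0.214), Fbln2 at -0.21 ± 0.10 (limma adjusted p = 0.238) and Col1a1 at -0.33 ± 0.25 (limma adjusted p = 0.470). For Fbln2 the DG minus CA1 difference was 0.00 ± 0.13 with all rats, 0.27 ± 0.20 in the first run alone and -0.31 ± 0.09 in the second alone. A p that misses the threshold does not show that the subregions change alike.

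Levels between subregions can be compared only in RPM (reads scaled to the same total of gene reads), since each subregion's table was normalized separately, and are given without a test. Col5a1 had the steepest profile, with a median of 27.01 RPM in CA1 (range 13.2 to 37.7), 19.3 in the DG (5.51 to 28.7) and 7.82 in CA3 (4.43 to 11.2). CA1 exceeded CA3 in 28 of 28 rats, the DG exceeded CA3 in 26 and CA1 exceeded the DG in 23. Sparc stepped down from 500.1 in CA1 (416 to 646) over 375 in CA3 (346 to 445) to 308 in the DG (255 to 399). CA1 was above CA3 in 27 rats and CA3 above the DG in 27, and the ranges of neighbouring subregions overlapped.

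The other genes differed less. Col1a1 had medians of 4.38 in CA1, 3.00 in the DG and 2.92 in CA3, and the DG exceeded CA3 in 14 of 28 rats, so those neighbours did not differ beyond their spread. Col1a2 (1.66, 1.30 and 1.25 in CA1, CA3 and the DG) had CA1 above CA3 in 14 rats and above the DG in 14. The order of the Col1a2 medians differed between the ages. They were 2.52 in the DG, 2.24 in CA3 and 1.90 in CA1 of young rats. In middle-aged rats they were 0.859 in the DG, 1.12 in CA3 and 1.28 in CA1. No difference between subregions in the age change of Col1a2 passed the within-rat test above. Col3a1 followed the order CA1, CA3 and DG with 3.41, 2.67 and 2.25, with CA1 above the DG in 24 rats. In young rats its CA3 median (4.01) was above that of CA1 (3.79), and in middle-aged rats CA1 (3.13) was above CA3 (2.38). For Serpinh1 the medians were 55.5 (CA1), 50.3 (CA3) and 49.3 (DG), with CA3 above the DG in 14 rats. Young rats had the DG (60.04) above CA3 (56.96) and middle-aged rats CA3 (44.9) above the DG (41.0). Fbln2 medians were 53.7 in CA1, 47.2 in the DG and 41.2 in CA3, with CA1 above CA3 in 26. Type IV collagen ran the other way, with the lowest medians in CA1 for Col4a1 (58.2, against 67.0 in CA3 and 64.0 in the DG) and for Col4a2 (57.6, against 74.3 and 75.5). The Col4a2 medians of the DG and CA3 were apart by less than their spread, the DG being higher in 14 of 28 rats, and the DG median was the higher in young rats (72.7 against 69.9) and the lower in middle-aged rats (76.4 against 77.5).

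To see which genes vary together between rats of the same age and run, age and run means were removed from the log2 values and each pair of the 9 genes was correlated over the 28 libraries of a subregion. Of the 36 pairs in each of 3 subregions, 12 correlations passed a 2-sided permutation test after adjustment over pairs and subregions together. Of these 11 were positive, and 9 correlations passed with Spearman's rho. The test asks only whether r differs from 0. The share that would pass among pairs of other genes was not computed, so the count is not read as particular to the 9 genes. Whether the facing start sites of Col4a1 and Col4a2, shown above, have a part in their correlation was not tested. Of all pairs, Col4a1 and Col4a2 followed each other most closely. Their r was 0.91 in CA1 (rho 0.87), 0.87 in CA3 (rho 0.85) and 0.90 in the DG (rho 0.81), each with a permutation p of 1e-05, the smallest that 100000 permutations can give (adjusted p = 0.00027 for r and 0.00036 for rho). The values were 0.86, 0.82 and 0.87 without the 2 libraries farthest from the median of Col4a1, and within the runs they lay between 0.84 and 0.93. Here and below, the 2 farthest are taken from the gene of a pair that stands first in the opening list of 9. Libraries that are extreme only in the other gene stay in.

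In the DG, Serpinh1 and Fbln2 had an r of 0.82 (rho 0.76, permutation p 1e-05 and 0.00014, adjusted p = 0.00027 and 0.00302). It was 0.75 without the 2 farthest libraries, and 0.93 and 0.23 in the first and second run, so in the DG the relation was not seen in the second run. The same pair in CA1 did not pass (r 0.50, adjusted permutation p = 0.0752), with 0.395 and 0.73 in the runs. Without the 2 farthest CA1 libraries it was 0.66 and passed (adjusted permutation p = 0.01). In CA3 it was 0.36, and 0.53 without the 2 farthest, and neither passed (adjusted permutation p = 0.183 and 0.0502). Col1a1 also followed Serpinh1 in the DG (r 0.66, rho 0.68, permutation p 0.00024 and 0.00026, adjusted p = 0.0037 and 0.00468), with 0.61 without the 2 farthest and 0.74 and 0.48 in the runs. For Col1a1 and Fbln2 the DG r was 0.59 (rho 0.58, permutation p 0.00405 and 0.00394, adjusted p = 0.0407 and 0.0473). That r was 0.47 without the 2 farthest libraries, which no longer passed, and its runs gave 0.78 and 0.04. The same pair in CA1 gave an r of 0.57 (rho 0.50, permutation p 0.00527 and 0.0161, adjusted p = 0.0474 and 0.112) and 0.45 without the 2 farthest libraries, which did not pass either. Its runs gave 0.55 and 0.62.

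The fibrillar chains were linked in other places. In CA3, Col1a2 and Col3a1 had an r of 0.79 (rho 0.75, permutation p 3e-05 and 7e-05, adjusted p = 0.000648 and 0.00189), with 0.72 without the 2 farthest and 0.72 and 0.83 in the runs. Col1a1 and Col3a1 in the DG gave 0.55 (rho 0.50, permutation p 0.00415 and 0.0117, adjusted p = 0.0407 and 0.0976), and 0.36 without the 2 farthest libraries, which no longer passed. Its runs gave 0.45 and 0.77. The 2 chains of type I collagen, Col1a1 and Col1a2, did not pass in any subregion, at 0.36, 0.48 and 0.44.

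Col5a1 went with type IV collagen in the DG. Its r was 0.80 with Col4a2 (rho 0.60, permutation p 0.00012 and 0.00295, adjusted p = 0.00216 and 0.0398), 0.74 without the 2 farthest and 0.86 and 0.59 in the runs. With Col4a1 the r was 0.70 (rho 0.57, permutation p 0.00146 and 0.00502, adjusted p = 0.0197 and 0.0542) and 0.53 without the 2 farthest libraries, which no longer passed, with 0.79 and 0.27 in the runs. The 1 negative relation that passed was Col4a2 with Sparc in the DG, at -0.65 (rho -0.62, permutation p 0.00182 and 0.00258, adjusted p = 0.0218 and 0.0398), -0.63 without the 2 farthest and -0.60 and -0.77 in the runs. In CA1 the same pair stood at 0.28 and in CA3 at -0.10, and the difference between subregions was not tested.

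**Figure D3:**
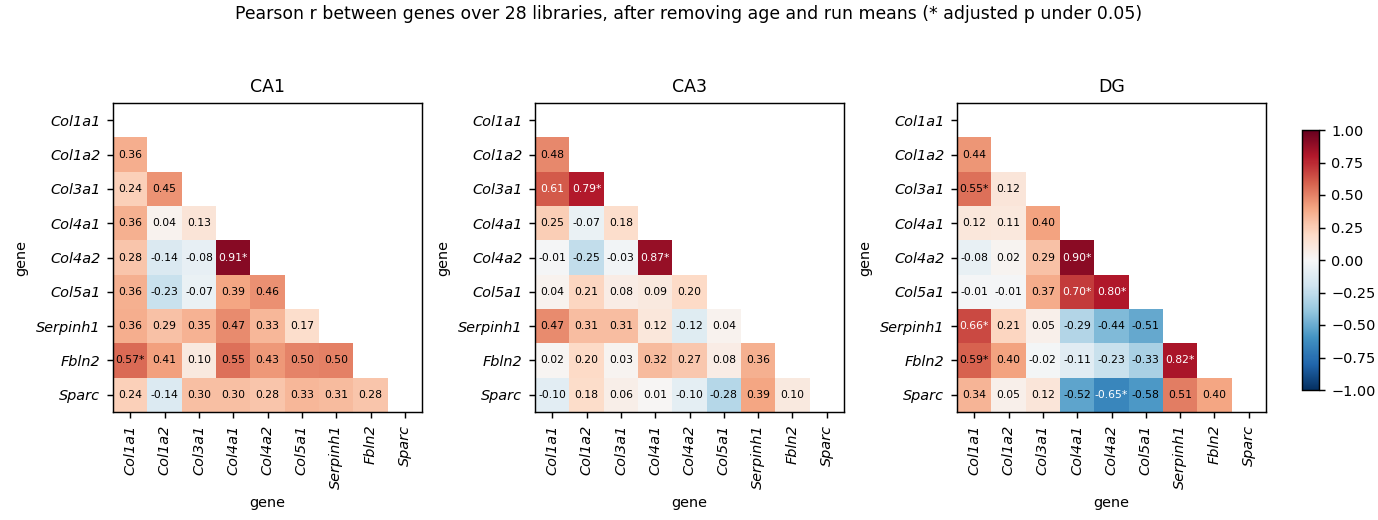
Pearson r (colour and printed value) between each pair of the 9 genes (both axes) over 28 libraries of CA1, CA3 and the DG, after removing the means of each age and run; stars mark an adjusted permutation p below 0.05. Col4a1 with Col4a2 is starred in all 3 subregions, and most other stars are in the DG.

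A rat with a high level in 1 subregion did not have a high level in another to a detectable degree. Across 27 correlations (9 genes by 3 pairs of subregions, 28 rats each), 0 passed the adjusted permutation test, by r or by rho, and 1 had an unadjusted permutation p below 0.05. That one was Sparc in CA3 and the DG (r 0.36, rho 0.40, permutation p 0.0496 and 0.0342, adjusted p = 0.807 and 0.786). Its r was 0.25 without the 2 rats farthest from the CA3 median, and 0.30 and 0.45 in the runs. Over the 27 the r ran from -0.29 to 0.36.

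Against all 12102 genes with a mean of at least 50 in each table, the genes most like each of the 9 were taken by their mean r over the 3 subregions (28 libraries each, age and run means removed). These are the highest of many values and are described without a p. For Serpinh1 they were Cldn5, a tight junction protein of brain endothelium, at 0.78, the amino acid carrier Slc38a3 at 0.78 and the endothelial receptor Tie1 at 0.76. For Fbln2 they were Rims4, an active zone protein, at 0.69, the semaphorin receptor Plxnb1 at 0.69 (0.38 in CA3) and Garem2 at 0.68 (0.52 in CA3). The chains of type IV had each other at 0.90, followed by fibrillar collagens and, for Col4a2, a nuclear protein. Col4a1 had Col11a2 at 0.75 and Col5a2 at 0.74, and Col4a2 had Col11a2 at 0.84 and Clasrp at 0.81. Col5a1 had Mcf2l at 0.77, the receptor kinase Ltk at 0.74 (0.56 in CA3) and Col27a1, another fibrillar collagen, at 0.74.

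Less close neighbours were found for the scarce fibrillar chains. Col1a1 had the platelet and endothelial receptor Pear1 at 0.63, an unnamed gene model, NEWGENE_621351, at 0.59, and the proline carrier Slc6a20 at 0.59. The gene model has no name in the reference table. Whether it shares reads with a collagen gene, Col1a2 among them, is not known here, and such sharing would make that gene's level uncertain. Col3a1 had Slc6a20 at 0.61, the caveolae protein Cavin1 at 0.56 and the basement membrane linker Nid1 at 0.56. Col1a2 had Mmp14, a collagen-cleaving protease, at 0.44, the matrix protein Prelp at 0.44 and Igfbp2 at 0.43. For Sparc the list was led by Cx3cr1, the fractalkine receptor of microglia, at 0.71, with Aldh2 at 0.69 and Rnd2 at 0.68. All points of 1 subregion share its libraries and their depth.

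The other genes of the collagen system were taken from 8 lists. Of the 151 list genes tested in CA1, 23 fell and 6 rose, of 152 in CA3, 16 fell and 9 rose, and of 147 in the DG, 29 fell and 23 rose. The shares that fell (15.2%, 10.5% and 19.7%) were near the 12.8%, 10.8% and 18.5% over all genes, so nothing particular to the lists is read from them. The shares that rose were 3.97%, 5.92% and 15.6%, beside 12.4%, 10.9% and 18.5% over all genes. Of the other collagen chains, none of 27 passed in CA1, 1 of 29 fell in CA3, and in the DG 1 of 27 fell and 5 rose, with a median log2 change of -0.16, 0.03 and 0.09. The gene that fell in CA3 was Col20a1, by 0.54 ± 0.14 on the log2 scale (limma adjusted p = 0.00649), and the one in the DG was Col6a2, a chain of the beaded-filament collagen, at -0.41 ± 0.13 (limma adjusted p = 0.0133). Higher in the DG were Col18a1, the source of endostatin, at 0.48 ± 0.08 (limma adjusted p = 0.000151), with 573 ± 99.7 (SD, n = 12) in young and 797 ± 94.1 (SD, n = 16) in middle-aged libraries, Col5a2 at 0.52 ± 0.17 (limma adjusted p = 0.0182) and Col6a6 at 0.59 ± 0.17 (limma adjusted p = 0.00973).

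Enzymes and carriers that build collagen moved both ways. In CA1, 2 of 31 fell and 3 rose, in CA3 2 of 30 fell and 1 rose, and in the DG 8 of 30 fell and 3 rose (medians -0.07, 0.02 and 0.01). Loxl1, a crosslinking oxidase of elastic fibres, was the gene of this list with the smallest p in the DG. It stood there at 220 ± 56.5 in young and 134 ± 29.4 in middle-aged libraries (-0.71 ± 0.12, limma adjusted p = 0.000249), and it fell in CA1 (-0.28 ± 0.10). In the DG the lysyl hydroxylases Plod1 (-0.24 ± 0.07) and Plod3 (-0.26 ± 0.07) fell too. So did Sec24d there, a coat protein of the vesicles that export procollagen (-0.34 ± 0.07). Lox (0.49 ± 0.14) and Sec23a (0.22 ± 0.07) rose in the DG. In CA1, Adamts2, which trims the procollagen end, fell by 0.60 ± 0.16. Ppib, a proline isomerase of procollagen, rose by 0.35 ± 0.08 in CA1 and fell by 0.25 ± 0.10 in the DG. Mia2, an export receptor, rose in CA1 (0.30 ± 0.07) and the DG (0.32 ± 0.09). Bmp1 fell in CA3 (-0.17 ± 0.04) and Colgalt1 in CA3 (-0.15 ± 0.05) and the DG (-0.17 ± 0.05), and Fkbp14 rose in CA1 (0.29 ± 0.10) and CA3 (0.26 ± 0.10).

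Basement membrane genes other than type IV collagen came next. Of 18 tested, 7 fell and 0 rose in CA1, 5 fell and 0 rose in CA3, and 3 fell and 1 rose in the DG, with medians of -0.19, -0.13 and -0.04. Over all genes 12.8%, 10.8% and 18.5% fell, so the DG count of 3 is near the background. Lamb2, a laminin chain of vessels, fell in each subregion, from 1081 ± 107 (SD, n = 12) to 858 ± 115 (SD, n = 16) in CA3 (-0.34 ± 0.06), by 0.41 ± 0.08 in CA1 and by 0.41 ± 0.09 in the DG. Nid2, a linker of laminin and type IV collagen, fell in CA1 (-0.56 ± 0.11) and CA3 (-0.36 ± 0.12). Agrn, a heparan sulfate proteoglycan, fell in CA1 (-0.37 ± 0.10), CA3 (-0.27 ± 0.05) and the DG (-0.27 ± 0.10), and the laminin chain Lamc3 in CA1 (-0.47 ± 0.10), CA3 (-0.30 ± 0.11) and the DG (-0.49 ± 0.14). Lamc1 fell in CA1 (-0.32 ± 0.07) and Lama5 in CA3 (-0.29 ± 0.10), and Smoc1 rose in the DG (0.37 ± 0.13).

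Relatives and partners of Fbln2 and Sparc were the next group. Of the fibulin, elastic fibre and matrix partner list, 7 of 28 fell and 1 rose in CA1, 3 of 28 fell and 3 rose in CA3, and 7 of 26 fell and 3 rose in the DG (medians -0.14, -0.06 and -0.19). Spock2, a testican related to Sparc, fell in CA1 (-0.42 ± 0.09), CA3 (-0.34 ± 0.06) and the DG (-0.24 ± 0.10), while Spock3 rose in CA1 (0.24 ± 0.07), CA3 (0.25 ± 0.08) and the DG (0.41 ± 0.07). Sparcl1, the closest relative of Sparc on the list, rose in CA3 (0.13 ± 0.05) and the DG (0.28 ± 0.06). Emilin1 of the elastic fibre fell in CA1 (-0.38 ± 0.09) and the DG (-0.47 ± 0.12), Ltbp4, which anchors latent TGF-beta, in CA1 (-0.31 ± 0.09), CA3 (-0.30 ± 0.06) and the DG (-0.49 ± 0.09), and Ltbp3 in CA1 (-0.22 ± 0.06) and the DG (-0.28 ± 0.08). Tenascin-C (Tnc) fell in CA1 (-0.43 ± 0.08), and Efemp1, a fibulin, rose in CA3 (0.28 ± 0.09).

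Collagen receptors and proteases followed. Ddr1, a receptor kinase for collagen, fell in CA1 (-0.42 ± 0.09), CA3 (-0.20 ± 0.07) and the DG (-0.28 ± 0.09). Its relative Ddr2 rose in the DG (0.44 ± 0.08), and the integrin chain Itga11 fell there (-0.33 ± 0.09). These were all the receptor genes that passed, out of 7, 6 and 6 tested. Of 11 genes of collagen breakdown, 4 fell in CA1 and 1 in CA3, while 3 fell and 1 rose in DG libraries (medians -0.21, -0.04 and -0.17). The membrane protease Mmp15 fell in CA1 (-0.33 ± 0.06), CA3 (-0.20 ± 0.05) and the DG (-0.46 ± 0.10). Mmp14 fell in the DG (-0.50 ± 0.13), and the protease inhibitor Timp2 in CA1 (-0.21 ± 0.08) and the DG (-0.28 ± 0.09). Timp3 (-0.20 ± 0.06) and Mmp9 (-0.31 ± 0.10) fell in CA1, and Mmp16 rose in the DG (0.20 ± 0.07).

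TGF-beta, the best known inducer of type I collagen, and the general chaperones of the endoplasmic reticulum did not move in 1 direction. Of the TGF-beta list 1 of 15 fell and 1 rose in CA1, 2 of 16 fell and 3 rose in CA3, and 3 of 15 fell and 5 rose in the DG (medians 0.01, 0.09 and 0.06). The receptor Tgfbr1 rose in CA1 (0.31 ± 0.11), CA3 (0.28 ± 0.08) and the DG (0.25 ± 0.08), and the target gene Ctgf rose in CA3 (0.35 ± 0.08) and the DG (0.44 ± 0.12). The inhibitor Skil rose in CA3 (0.24 ± 0.06) and the DG (0.44 ± 0.08), while its relative Ski fell in CA1 (-0.32 ± 0.07), CA3 (-0.24 ± 0.07) and the DG (-0.29 ± 0.06) and the inhibitor Smad7 in CA3 (-0.21 ± 0.06) and the DG (-0.31 ± 0.07). Of 14 chaperones, 1 fell and 1 rose in CA1, 1 fell and 2 rose in CA3, and 2 fell and 4 rose in the DG (medians 0.05, 0.07 and 0.05). Canx rose in CA1 (0.18 ± 0.06), CA3 (0.14 ± 0.05) and the DG (0.33 ± 0.07), Dnajb9 in CA3 (0.36 ± 0.09) and the DG (0.48 ± 0.11), and Hsp90b1 in the DG (0.32 ± 0.10). Hyou1 fell in CA1 (-0.19 ± 0.05), CA3 (-0.17 ± 0.03) and the DG (-0.14 ± 0.06), and Pdia6 in the DG (-0.16 ± 0.05). Serpinh1, a chaperone specific to collagen, had the negative changes given above.

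**Figure D4:**
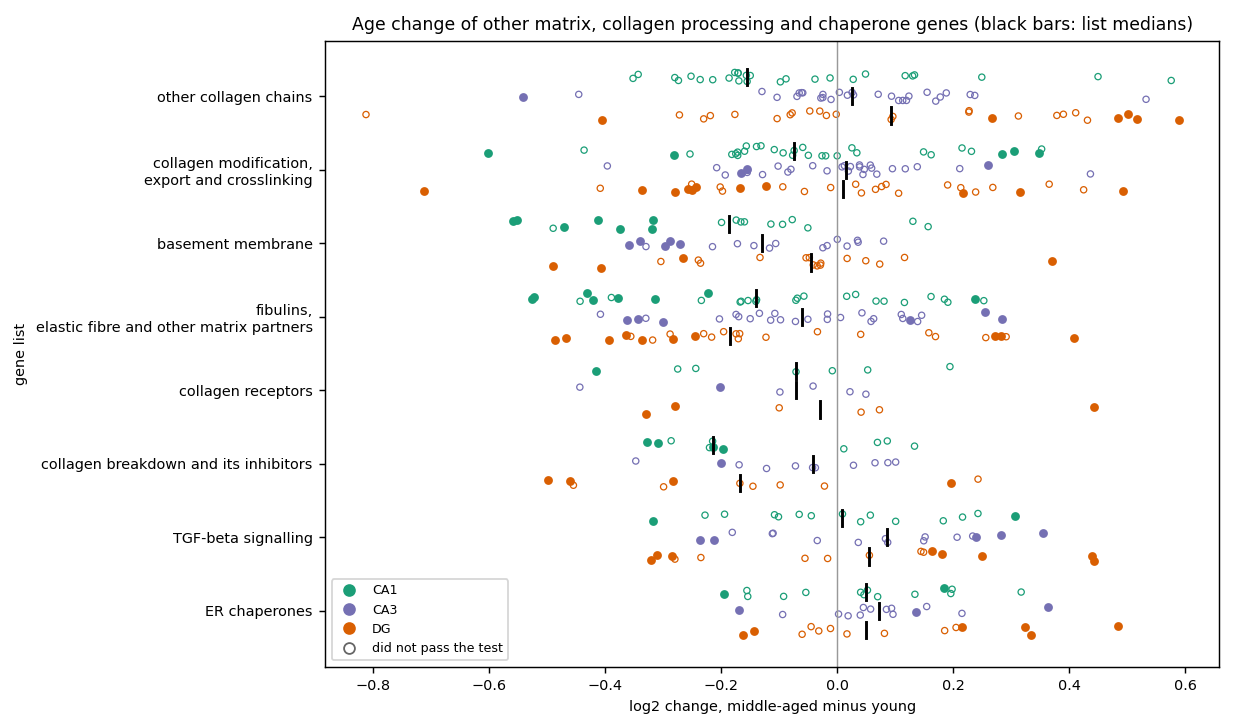
Log2 change from young to middle-aged (x axis) of each tested gene of 8 lists (y axis) in CA1, CA3 and the DG; filled points passed the test over all genes and black bars are list medians. Filled basement membrane points lie left of 0 but for Smoc1 in the DG, and filled points of the chaperone and TGF-beta lists lie on both sides.

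In bulk tissue, fewer cells of a type and less RNA per cell cannot be told apart. Markers of the cells that make these proteins, and of the other cells of the tissue, had the following values, beside 25.2%, 21.7% and 37.1% of all genes that changed either way. Of 9 fibroblast markers tested, 1 fell and 2 rose in CA1, none passed in CA3 and 3 fell in the DG (Igf2 at -0.69 ± 0.19, Slc6a13 at -0.40 ± 0.16 and Islr at -0.33 ± 0.12). Lum and Dcn, which define fibroblasts of the meninges, had DG changes of -0.28 ± 0.18 and -0.06 ± 0.15 that did not pass. Nor did Slc22a6 (-0.30 ± 0.24), Ogn (0.35 ± 0.20), Mgp (0.09 ± 0.12) and Aldh1a2 (0.00 ± 0.19) pass in the DG. In CA1, Igf2 fell (-0.47 ± 0.11), while Ogn (0.72 ± 0.26) and Aldh1a2 (0.46 ± 0.15) rose. The summed level of the list ran from 413 to 1187 (median 595) in young and from 391.5 to 664 (median 499) in middle-aged DG libraries, from 825 to 1087 and 738 to 1223 in CA1, and from 785 to 1427 and 705 to 2489 in CA3. For 8 endothelial markers, 1 fell in CA1 (Tie1), none passed in CA3 and 2 fell in the DG (Cldn5 and Tie1), with sums of 3196 to 4707 in young and 2657 to 4593 in middle-aged DG libraries, 3867 to 6838 and 3987 to 6034 in CA1, and 3508 to 4536 and 3360 to 4874 in CA3. Of 10 mural cell markers, 1 fell in CA1, 1 in CA3 and 3 for DG, Notch3 among them each time, and the DG sums ran from 1854 to 2904 and from 1694 to 2777. Of 8 microglia markers, 3 rose in CA1, 6 in CA3 and 2 in DG libraries, and none fell. Microglia sums ran from 6334 to 7852 in young and from 7060 to 35280 in middle-aged CA1, from 5576 to 7095 and 6880 to 25530 in CA3, and from 4742 to 7499 and 4768 to 9638 in the DG. Astrocyte markers had 2 of 8 that fell in CA1, and 1 that fell and 1 that rose in both CA3 and the DG. Of 6 markers of oligodendrocyte precursors, 2 fell in CA1, 1 in CA3 and 2 for DG. Neuron markers also moved: of 4 for CA1 pyramidal cells, 2 fell in CA1 and 1 in the DG, of 3 for CA3 pyramidal cells, 2 fell in the DG, and of 4 for dentate granule cells, 1 rose in CA1, and 1 fell and 2 rose in the DG. No marker on these lists had a median of 0 in either age. Choroid plexus sums ran from 21.6 to 20700 over all groups and none of its tested markers passed. The part of these markers in the collagen results was not tested.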

How the data were processed

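Normalized counts per gene were deposited by the authors for 28 CA1, 28 CA3 and 28 DG libraries, 1 table per subregion. The deposited values are a signal (counts divided by a size factor per library), made with Partek, STAR 2.5.3a and DESeq2 on rn6 per the submitters' processing notes. Annotation and strand: not given in the sources used here. Whole reads were recovered for 100% of values up to 1000 reads (tolerance 0.1) and gave the depth, read shares per library and the count tests.

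Genes reaching 10 in 12 or more libraries were tested on log2(value + 1) with limma 3.58.1 (R 4.3.3, trend, 2-sided, Benjamini-Hochberg, threshold 0.05), which left 14685, 14893 and 14526 genes. Differences between subregions were fitted on within-rat differences, paired by the animal number in the titles. One CA3 column (middle-aged replicate 13) names the rat and no subregion. Libraries of 1 rat deviated together only weakly (median r over 12102 genes of 0.043 for CA1 and CA3, 0.014 for CA1 and the DG and 0.086 for CA3 and the DG), so the pairing rests on the titles. Alternatives were edgeR 4.0.16 and DESeq2 1.42.0 on the whole reads, TMM or median-of-ratios scaling, a pseudocount of 0.5 or 5, a minimum of 50 or none, a run term, each run alone, no pairing, and leaving out each rat. The fits were tested on simulated data. Counting error alone is not given an interval, since the spread between rats includes it.

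The 9 genes and the lists were chosen with earlier results of these data known. Named are the 9 genes, from each list up to 4 called genes per subregion with the smallest p, and the 3 most alike genes for each of the 9. Lox and Sec23a are named besides, as genes of their list that rose in the DG. Some list genes were matched by older symbols (Ctgf for Ccn2).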

Additional observations from a re-analysis of the deposited data

How the results depend on the processing

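With all 28 rats, 3, 4 and 4 of the 9 genes were called lower in CA1, CA3 and the DG. With the first run of animal numbers alone the counts were 1 in CA1 and 0 in the DG, and with the second run alone 2 in CA3. Each fit without 1 rat gave 3 in CA1, 4 to 5 in CA3 and 4 to 5 in the DG. For the difference DG minus CA3 the second run alone gave 1 call (Serpinh1), against 0. Without the replicate block (no pairing by rat) 0 of the 9 genes were called in each difference, as with it. Over all genes, the difference DG minus CA1 had 87 calls, 8 without the pairing, 165 with a minimum of 50, 264 with a run term, and 1 and 19 in the runs. For DG minus CA3 these were 393, with 171 without the pairing and 1 and 757 in the runs. Age calls over all genes fell from 3700 to 468 in CA1, from 3231 to 719 in CA3 and from 5382 to 25 in the DG with the first run alone, and were 4958, 2462 and 6812 with the 12 rats of the second alone. Called list genes numbered 29, 25 and 52, and 5, 9 and 1 in the first run and 14 in CA3 in the second. Of correlations between the 9 genes, 12 passed, and 0 in the second run, which has 12 rats.

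Uncalled differences between subregions turned sign in single runs. In the first run alone they were 0.16 for Sparc (DG minus CA1), -0.14 for Col3a1 and -0.14 for Col4a2 (DG minus CA3), and 0.0095 for Serpinh1 (CA1 minus CA3). In the second run they were 0.13 for Col3a1 and -0.31 for Fbln2 (DG minus CA1), 0.17 for Col4a1 (DG minus CA3), and -0.40 for Col1a2, -0.013 for Col3a1, 0.099 for Col4a1, 0.34 for Col4a2, 0.045 for Col5a1 and 0.030 for Sparc (CA1 minus CA3). A run term gave -0.028 for Col3a1 (DG minus CA3). Leaving out 1 rat gave -0.071 to 0.034 for Fbln2, -0.031 to 0.13 for Col4a1 and -0.021 to 0.19 for Col4a2 (DG minus CA1), -0.077 to 0.033 for Col4a1 and -0.10 to 0.17 for Col3a1 (DG minus CA3), and -0.082 to 0.075 for Col4a2 and -0.15 to 0.043 for Col1a1 (CA1 minus CA3). The causes were not tested. A minimum of 50 left Col1a2 untested in all 3 subregions and Col3a1 in the DG. Counting limits Col1a2 most, at 3 to 94 reads a library.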
